A study of Mus musculus with 18 samples.

Results

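The 35 genes described here encode enzymes that handle glucose after it has entered the cell, taken from a fixed list of names out of the 55450 genes of the count table. They fall into glycolysis (18 genes), lactate (3), glycogen (6), the pentose phosphate pathway (6) and the hexosamine pathway (2). Their RNA was measured by sequencing in the left ventricle of male FVB/N mice, either wild-type (WT) littermates or mice that overexpress Gαq, the G protein subunit encoded by Gnaq, in the heart. From 4 weeks of age both genotypes ate control diet (CD) or chow with 0.5 mg/g ertugliflozin (ERTU), an inhibitor of the sodium-glucose cotransporter SGLT2, for 16 weeks, and tissue was taken at 20 weeks. WT hearts gave 4 libraries on CD and 5 on ERTU, and Gαq hearts 5 on CD and 4 on ERTU, each from 1 heart and named here by group and by the number in the tables, which was not linked to the numbering of the labels. The transgene is cardiac-specific, and its promoter is not given in the sources used here.

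Glycolysis splits glucose into pyruvate and yields a little ATP, with hexokinase, phosphofructokinase and pyruvate kinase as its steps that run in 1 direction. Pyruvate can become lactate or enter the mitochondria. Glucose-6-phosphate, the product of hexokinase, can instead be stored as glycogen or enter the pentose phosphate pathway, which makes NADPH and ribose, while fructose-6-phosphate feeds the hexosamine pathway, which makes the sugar used to modify proteins with O-GlcNAc. The healthy adult heart burns mainly fatty acids, and a greater reliance on glucose is a known feature of the hypertrophied or failing heart. Many of these enzymes exist as isoenzymes from separate genes, 1 typical of adult muscle and others of most tissues.

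Total counts ran from 15383566 to 20908363 per library. Gnaq stood between 45.5 and 230 CPM (counts scaled to the library total with TMM factors) in WT libraries. It stood between 1641 and 11670 CPM in Gαq CD and between 2236 and 5207 CPM in Gαq ERTU libraries. The transgene thus checked the genotype labels in every library. The part of its level in the comparisons that involve diet in Gαq was not tested. Pdk4, which encodes a kinase that holds back pyruvate oxidation, was below 500 CPM in WT CD library 4 and Gαq CD libraries 7, 8 and 9. It was at least 1308 CPM in the others, so calls are also given without these 4 libraries. Gαq CD libraries 7, 8 and 9 also had the most Gnaq, at 9701, 8045 and 11670 CPM. Gαq CD libraries 6 and 10 had 6304 and 1641 CPM. Fits without the libraries low in Pdk4 thus also lack the highest transgene levels and keep only libraries 6 and 10 of Gαq CD. In these fits the parts of Pdk4, Gnaq and the smaller group cannot be told apart. Cardiomyocyte markers, 10 genes, summed to between 43800 and 64000 CPM, so the RNA of the labelled tissue was present. The atrial marker Myl7 varied from 0 to 138 CPM between libraries and within each group.

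The levels of the enzymes differed by branch and by isoenzyme. Levels were compared between genes as CPM per kb of merged exons, with the median over the 18 libraries. Aldoa, the muscle aldolase that cleaves the 6-carbon sugar, was highest at 1032 CPM per kb, followed by the muscle enolase Eno3 at 811, the heart-type lactate dehydrogenase Ldhb at 706, the muscle phosphoglycerate mutase Pgam2 at 563 and the muscle glycogen phosphorylase Pygm at 447. The ranges of neighbouring genes in this order overlapped. The 6 pentose phosphate genes lay between 2.63 for Rpia and 35.1 for Taldo1, and the hexosamine genes Gfpt1 and Gfpt2 at 3.24 and 3.44. Pfkm, the muscle phosphofructokinase, stood at 398 CPM per kb, its liver isoenzyme Pfkl at 24.5 and its platelet isoenzyme Pfkp at 6.89, in ranges that did not overlap.

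Some low levels concern genes whose sequence recurs elsewhere. Gapdh, usually among the most abundant mRNAs, was counted at only 6.03 to 11 CPM. Of the 100-base windows of its transcripts, 53.1% also occurred unchanged in transcripts of 86 other genes, and only uniquely aligned read pairs were counted. The corresponding share was 67% for Pgk1, 39.7% for Pgam1 and 39.5% for Eno1, so the levels of these 4 genes are uncertain and the ratios that use them compare counted pairs only. Aldoc, the brain aldolase, was at 0 to 0.678 CPM and was removed by the filter on low counts. The other 34 members were tested.

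**Figure D1:**
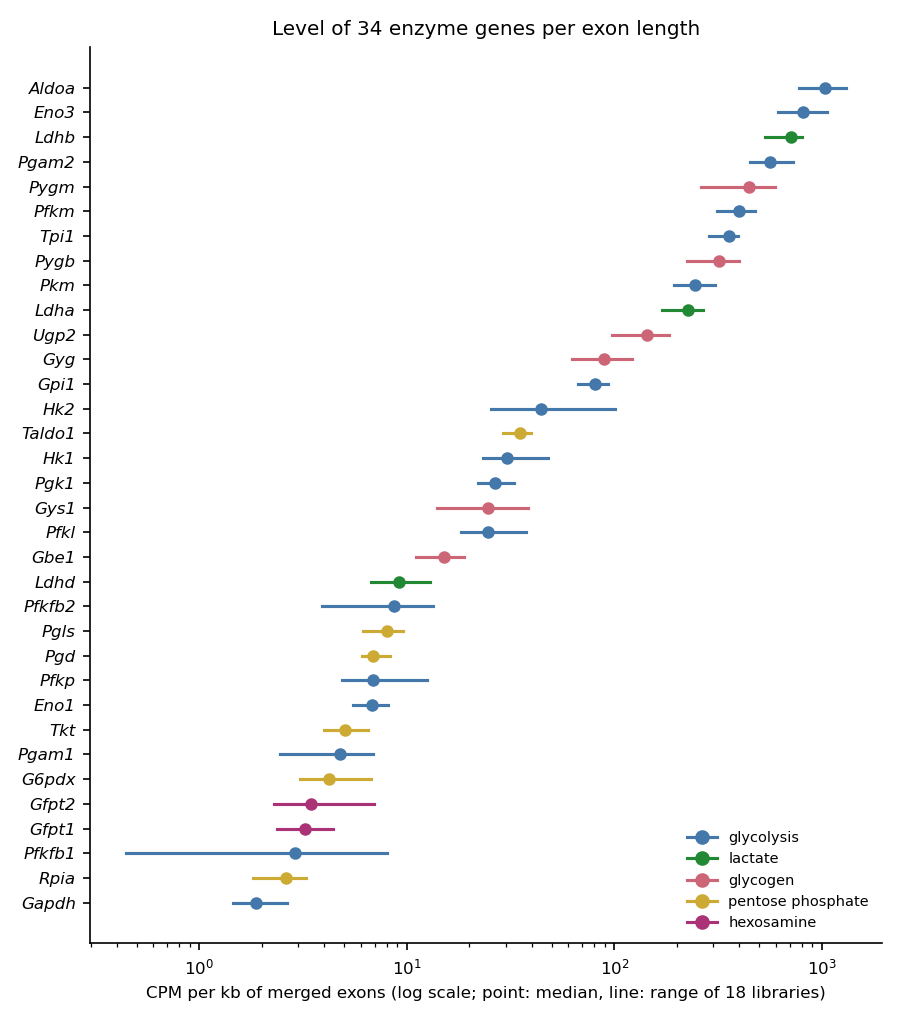
Level of 34 enzyme genes in CPM per kb of merged exons on a log axis, with the median as a point and the range of all 18 libraries as a line, coloured by branch. Muscle isoenzymes such as Aldoa (1032), Eno3 (811) and Pgam2 (563) stand at the top. Pentose phosphate and hexosamine genes are all at or below 35.1, the highest being Taldo1, which stands above glycolysis genes such as Hk1 (30.5). Gapdh, Pgk1, Pgam1 and Eno1 have many windows shared with other genes, and Aldoc is left out.

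The comparison of genotypes asked how the enzymes differed between Gαq and WT hearts in a model that also held diet. Most changes were small, and the large ones were in regulatory isoenzymes and in glycogen synthesis. Pfkfb1 fell 4.74-fold and Gys1, the muscle glycogen synthase, 1.49-fold, while Pfkp rose 1.76-fold and Gyg, the glycogenin that primes glycogen, 1.5-fold. Of the 34 members tested 10 were called at an adjusted p below 0.05 (edgeR quasi-likelihood test, Benjamini-Hochberg over all genes), 3 higher and 7 lower in Gαq. That is 29.4%, against 19.6% of the 16270 genes tested, of which 9.72% were higher and 9.92% lower. The median log2 change was -0.13 for the members and 0.00 for all genes, and the median absolute change 0.19 and 0.16. By branch 5 of 17 glycolysis genes, 1 of 3 lactate genes, 4 of 6 glycogen genes, 0 of 6 pentose phosphate genes and 0 of 2 hexosamine genes were called. Without the 4 libraries low in Pdk4, 6 members were called, and Hk1, Eno3, Pkm and Pygm were not (adjusted p from 0.0651 to 0.159), while genes called over the whole table fell from 3196 to 2389. Their log2 changes were then 0.38 ± 0.13 for Hk1, -0.23 ± 0.11 for Eno3, -0.22 ± 0.10 for Pkm and -0.26 ± 0.10 for Pygm. In bulk tissue, fewer cells of a type and less RNA per cell cannot be told apart.

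**Figure D2:**
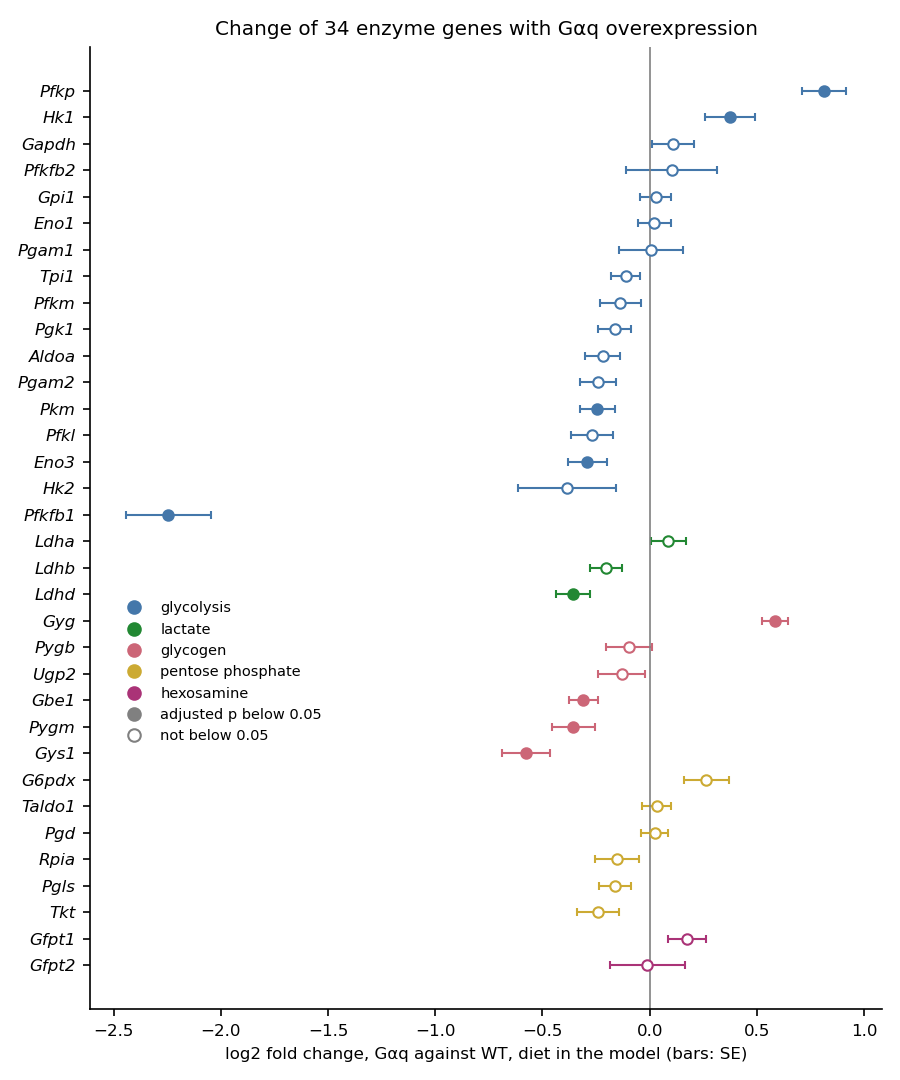
Log2 fold change of Gαq against WT, with diet in the model, for 34 enzyme genes ordered within each branch, with bars for the SE and filled points for an adjusted p below 0.05. Pfkfb1 (-2.24) lies far to the left of all others, Pfkp (0.81) and Gyg (0.58) are the rightmost points, and no pentose phosphate or hexosamine gene is filled.

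Pfkfb1 and Pfkfb2 encode isoenzymes of the enzyme that makes and degrades fructose-2,6-bisphosphate, the activator of phosphofructokinase, with Pfkfb1 typical of liver and skeletal muscle and Pfkfb2 of heart. Pfkfb1 (ENSMUSG00000025271, GRCm38 chromosome X, 150588229 to 150643878) was at 29.3, 23.9, 15.8 and 22.5 CPM in WT CD and 30.8, 32.2, 31.6, 24.8 and 23.6 CPM in WT ERTU. It was at 7.19, 1.79, 2.65, 4.83 and 6.84 CPM in Gαq CD and 7.13, 5.16, 7.34 and 5.56 CPM in Gαq ERTU. Every Gαq library lay below every WT library. The log2 change was -2.24 ± 0.20 (SE, edgeR adjusted p = 8.3e-08), and the lowest library of WT CD, number 4, and the lowest of Gαq CD, numbers 7, 8 and 9, were the ones low in Pdk4. Exons of Pfkfb1 share 123 bases with exons of Apex2, a DNA repair gene on the opposite strand, which was itself at 4.81 to 16.0 CPM in WT and 2.66 to 5.23 CPM in Gαq libraries, and its part in the result was not tested. Pfkfb2 was more abundant, at 72.8, 68.1, 87.1 and 33.4 CPM in WT CD and 69.4, 90.0, 82.5, 91.4 and 48.5 CPM in Gαq CD. Its change with genotype was 0.10 ± 0.21 (edgeR adjusted p = 0.79), and its values overlapped widely between the groups. Exons of Pfkfb2 share 1262 bases with Gm29427 on the same strand, which was at 0.057 to 0.753 CPM in WT and 0.046 to 0.395 CPM in Gαq libraries. Of the 100-base windows of Pfkfb2, 22.2% also occurred in 2 other genes, and the part of this in its level was not tested.

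Pfkp (ENSMUSG00000021196, chromosome 13, 6579768 to 6648777) catalyses the committed step of glycolysis, as Pfkm and Pfkl do. Pfkp was at 69.4, 75.1, 66.2 and 80.2 CPM in WT CD, 73.6, 81.3, 65.2, 73.3 and 86.6 CPM in WT ERTU, 168, 139, 131, 155 and 108 CPM in Gαq CD and 98, 164, 117 and 108 CPM in Gαq ERTU. All 9 Gαq libraries were above all 9 WT libraries, and the log2 change was 0.81 ± 0.10 (edgeR adjusted p = 7.6e-06). Exons of Pfkp share 748 bases with Pitrm1 on the opposite strand, which stood at 64.1 to 80.4 CPM in WT and 62.3 to 74.1 CPM in Gαq libraries. Pfkm, the main isoenzyme, was at 1227 to 1586 CPM in WT CD and 1044 to 1481 CPM in Gαq CD, with a log2 change of -0.14 ± 0.10 (edgeR adjusted p = 0.36). Pfkl had a log2 change of -0.27 ± 0.10 and just missed the threshold (edgeR adjusted p = 0.058).

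Hexokinase traps glucose in the cell as glucose-6-phosphate. Hk1 (ENSMUSG00000037012, chromosome 10, 62268855 to 62379908), the isoenzyme of most tissues, was at 222, 200, 272 and 251 CPM in WT CD and 224, 247, 198, 209 and 334 CPM in WT ERTU. In Gαq it was at 355, 299, 261, 396 and 261 CPM on CD and 268, 407, 295 and 256 CPM on ERTU. The groups overlapped, with WT ERTU library 15 above 6 of the 9 Gαq libraries, and the log2 change was 0.38 ± 0.12 (edgeR adjusted p = 0.027). This call was lost when WT CD library 1 or 2, Gαq CD library 9 or Gαq ERTU library 17 was left out (adjusted p from 0.0505 to 0.073). Hk2, the insulin-responsive isoenzyme of adult muscle, was at 283, 308, 477 and 242 CPM in WT CD and 233, 308, 246, 181 and 603 CPM in WT ERTU. It was at 267, 346, 260.4, 426 and 151 CPM in Gαq CD and 162, 309, 200 and 162 CPM in Gαq ERTU, and its change of -0.38 ± 0.23 was within the spread between libraries (edgeR adjusted p = 0.27).

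The later steps of glycolysis showed small changes. Eno3 (ENSMUSG00000060600, chromosome 11, 70657202 to 70662513), which makes phosphoenolpyruvate, was at 1672, 1706, 1793 and 1192 CPM in WT CD, 1669, 1841, 1717, 1275 and 1806 CPM in WT ERTU, 1451, 1070, 1285, 1369 and 1329 CPM in Gαq CD and 1521, 1362, 1351 and 1205 CPM in Gαq ERTU. WT CD library 5 and WT ERTU library 14 stood among the Gαq values, and the log2 change was -0.29 ± 0.09 (edgeR adjusted p = 0.029). Pkm (ENSMUSG00000032294, chromosome 9, 59656368 to 59679375), the pyruvate kinase of muscle, was at 1342, 1429, 1384 and 1128 CPM in WT CD, 1361, 1402, 1230, 1176 and 1534 CPM in WT ERTU, 1255, 986, 1064, 1204 and 1043 CPM in Gαq CD and 1226, 1318, 1034 and 969 CPM in Gαq ERTU. Exons of Pkm share 767 bases with Gm49759 on the same strand, which was at 10.3 to 23.9 CPM in WT and 10.85 to 18.7 CPM in Gαq libraries. The log2 change of Pkm was -0.24 ± 0.08 (edgeR adjusted p = 0.036), again with overlap between the genotypes. Neither call is firm, since leaving out 1 library removed that of Eno3 in 6 of 18 fits (WT CD 1, 2 or 4, Gαq CD 7, WT ERTU 12 or Gαq ERTU 20, adjusted p from 0.052 to 0.0629). For Pkm it did so in 11 of 18 fits (WT CD 1, 2 or 4, Gαq CD 7, 8 or 10, WT ERTU 11, 12 or 15, or Gαq ERTU 18 or 20, adjusted p from 0.0529 to 0.0809). With log2 Myl7 as a covariate neither was called (adjusted p = 0.0544 and 0.0639).

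The other glycolysis genes did not pass the test by genotype. Pgam2 had a log2 change of -0.24 ± 0.08 (edgeR adjusted p = 0.0502) and Aldoa one of -0.22 ± 0.08 (edgeR adjusted p = 0.067). Tpi1, which interconverts the triose phosphates, was at 784 to 1086 CPM and Gpi1, which makes fructose-6-phosphate, at 432 to 603 CPM over all libraries, with log2 changes of -0.11 ± 0.07 and 0.03 ± 0.07. For the genes with many shared windows the changes were 0.11 ± 0.10 for Gapdh, -0.16 ± 0.08 for Pgk1, 0.01 ± 0.15 for Pgam1 and 0.02 ± 0.08 for Eno1.

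Lactate dehydrogenase converts pyruvate and L-lactate into each other, while Ldhd encodes the mitochondrial enzyme that oxidises D-lactate. Ldhd (ENSMUSG00000031958, chromosome 8, 111623785 to 111630374) was at 48.3, 68.6, 56 and 50.8 CPM in WT CD, 56.4, 59.4, 59.6, 49 and 58.8 CPM in WT ERTU, 50.0, 35.9, 37.3, 41.8 and 46.6 CPM in Gαq CD and 49.2, 47.6, 43.9 and 41.9 CPM in Gαq ERTU. The genotypes overlapped slightly, with Gαq CD library 6 above WT CD library 1, and the log2 change was -0.36 ± 0.08 (edgeR adjusted p = 0.0025). Exons of Ldhd share 2246 bases with Znrf1 on the opposite strand, which was at 49.4 to 81.3 CPM in WT and 45.5 to 70.8 CPM in Gαq libraries. Ldha, the muscle-type subunit, was at 560 to 817 CPM in WT and 661 to 882 CPM in Gαq, a change of 0.09 ± 0.08 (edgeR adjusted p = 0.51). Ldhb, the heart-type subunit, was at 916 to 1260 CPM in WT and 838 to 1132 CPM in Gαq, a change of -0.20 ± 0.08 (edgeR adjusted p = 0.063).

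Glycogen is built by glycogenin, glycogen synthase and the branching enzyme and broken down by phosphorylase. Gyg (ENSMUSG00000019528, chromosome 3, 20122084 to 20155317), the primer of the chain, was at 183, 169.8, 178 and 146 CPM in WT CD, 191, 164, 179, 179 and 169.6 CPM in WT ERTU, 286, 251, 262, 269.7 and 264 CPM in Gαq CD and 282, 229, 248 and 249 CPM in Gαq ERTU. Every Gαq library stood above every WT library, and the log2 change was 0.58 ± 0.06 (edgeR adjusted p = 8.0e-07). The chain-extending and branching enzymes moved the other way. Gys1 (ENSMUSG00000003865, chromosome 7, 45434844 to 45456619) was at 143, 129, 121 and 139 CPM in WT CD, 184, 149, 116, 127 and 159.5 CPM in WT ERTU, 119, 78.7, 67.2, 118 and 76.3 CPM in Gαq CD and 87.5, 107, 94.3 and 94.2 CPM in Gαq ERTU. Of the Gαq libraries only CD libraries 6 and 9 reached the lowest WT value, that of WT ERTU library 13, and the log2 change was -0.58 ± 0.11 (edgeR adjusted p = 0.00072).

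Gbe1 (ENSMUSG00000022707, chromosome 16, 70313949 to 70569716), the branching enzyme, was at 90.0, 86.4, 81.5 and 86.4 CPM in WT CD, 84.2, 92.5, 84.5, 81.8 and 100.4 CPM in WT ERTU, 80.5, 80.6, 74.7, 70.2 and 59.2 CPM in Gαq CD and 66.6, 74.9, 67 and 63.5 CPM in Gαq ERTU. The genotypes did not overlap, though the highest Gαq and lowest WT libraries were less than 1 CPM apart, and the log2 change was -0.31 ± 0.07 (edgeR adjusted p = 0.0020). Pygm (ENSMUSG00000032648, chromosome 19, 6384399 to 6398459), which releases glucose-1-phosphate, was at 1636, 1646, 1440 and 1484 CPM in WT CD, 1905, 1762, 1475, 1248 and 1677 CPM in WT ERTU, 1398, 1000, 842, 1187 and 1324 CPM in Gαq CD and 1443, 1439, 1285 and 1143 CPM in Gαq ERTU. It overlapped between genotypes, with WT ERTU library 14 below 5 of the 9 Gαq libraries, and the log2 change was -0.36 ± 0.10 (edgeR adjusted p = 0.015). The brain phosphorylase Pygb, at 1073 to 1912 CPM, had a change of -0.10 ± 0.11 (edgeR adjusted p = 0.58), and Ugp2, which makes the UDP-glucose donor, one of -0.13 ± 0.11 (edgeR adjusted p = 0.45).

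Over all members, the WT and Gαq libraries did not overlap for 4 genes (Pfkp, Pfkfb1, Gbe1 and Gyg), while 3.56% of all genes tested showed no overlap.

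**Figure D3:**
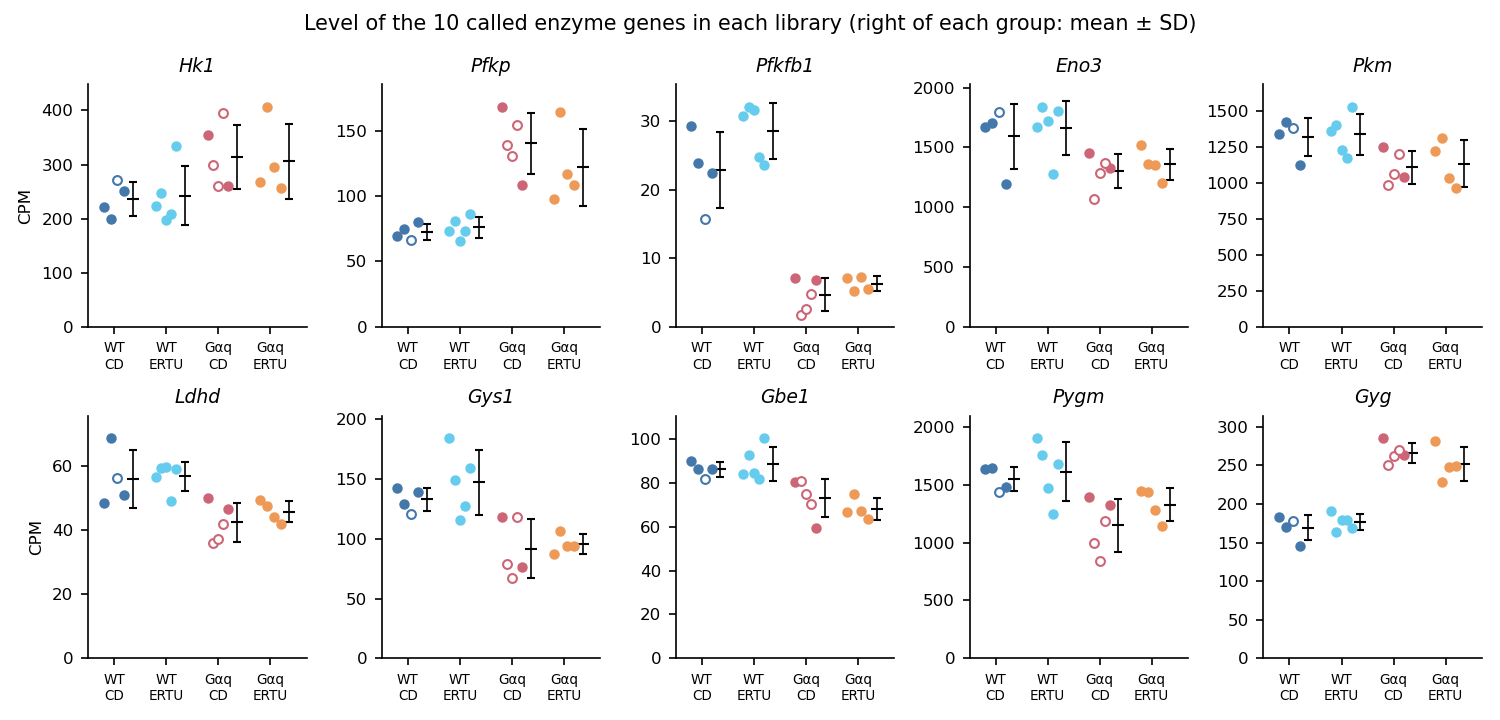
CPM of the 10 enzyme genes called by genotype in each of the 18 libraries, from 0 on each axis, with the group mean and SD beside the points and open points for the 4 libraries low in Pdk4. Pfkp, Pfkfb1, Gbe1 and Gyg show no overlap between WT and Gαq, and Hk1, Eno3, Pkm, Ldhd, Gys1 and Pygm do.

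The promoters of genes called in Gαq against WT over both diets and on each diet (Pfkp, Pfkfb1, Gys1 and Gyg) are described because no other member was called in all 3 of these comparisons. Of the 250 bases before each RefSeq start (GRCm38.p6), the longest stretch free of annotated exons on either strand was 244 bases for Pfkp, 129 for Gys1, 49 for Gyg and 0 for Pfkfb1, whose start faces Apex2. The stretches of at least 100 bases are shown, 5′ to 3′ on the gene's own strand, with GC boxes (GGGCGG) and CCAAT boxes in either orientation in capitals. Pfkp lies on the minus strand (chr13:6648778-6649021) and Gys1 on the plus strand (chr7:45434710-45434838).
Pfkp: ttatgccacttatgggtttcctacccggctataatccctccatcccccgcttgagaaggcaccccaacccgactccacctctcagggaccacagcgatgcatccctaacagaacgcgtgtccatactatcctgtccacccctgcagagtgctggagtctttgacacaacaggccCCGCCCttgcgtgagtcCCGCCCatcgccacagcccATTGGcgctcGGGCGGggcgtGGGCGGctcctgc
Gys1: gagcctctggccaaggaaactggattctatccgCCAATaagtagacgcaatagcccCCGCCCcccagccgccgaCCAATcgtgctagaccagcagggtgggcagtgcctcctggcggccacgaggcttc
In the full 250 bases there were 4 GC boxes before Pfkp, 2 before Pfkfb1, 2 before Gys1 and 1 before Gyg, and CCAAT boxes only before Pfkp (1) and Gys1 (4). At least 1 GC box was found in 39.4% and a CCAAT box in 35.2% of 20594 promoter windows of this length. No match was found in these 4 windows for the E-box CACGTG, present in 6.41% of all windows, or the cAMP response element TGACGTCA, present in 1.91%. The ACGTG core bound by hypoxia-inducible factors, which is part of every E-box of that kind, was also absent from them and present in 17.3% of all windows. The same held for the TATA box TATAAA, present in 12.2%. The nuclear receptor half-site AAGGTCA, present in 3.7%, was absent as well. A match is a run of letters and was not tested for binding.

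None of the pentose phosphate and hexosamine genes passed the test by genotype. G6pdx, the entry enzyme that makes NADPH, was at 9.47 to 15.5 CPM in WT and 12.5 to 20.7 CPM in Gαq libraries, a log2 change of 0.26 ± 0.11 (edgeR adjusted p = 0.085). Tkt, the transketolase that links the pathway back to glycolysis, had a change of -0.24 ± 0.10 (edgeR adjusted p = 0.087) and Pgls, the lactonase, one of -0.16 ± 0.07 (edgeR adjusted p = 0.13). Pgd, which makes further NADPH, had a change of 0.02 ± 0.06, Taldo1, the transaldolase, 0.03 ± 0.07 and Rpia, the ribose isomerase, -0.15 ± 0.10. In the hexosamine branch, the rate-limiting enzymes Gfpt1 and Gfpt2 had changes of 0.17 ± 0.09 and -0.01 ± 0.18 (edgeR adjusted p = 0.19 and 0.98).

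The balance between isoenzymes was compared as the log2 ratio of levels per kb in each library, for 9 pairs and both factors (18 exact permutation tests, 2-sided, with labels permuted within the other factor over 15876 joint splits, adjusted together). Of the 9 ratios 6 differed by genotype. In 5 of them the first-named gene stood higher relative to the second in Gαq than in WT, and in Pfkfb1 to Pfkfb2 it stood lower. These ratios share genes with the calls above and are not separate evidence.

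The ratio of Hk1 to Hk2 averaged -0.95 ± 0.37 (SD, n = 4) in WT CD, -0.78 ± 0.39 (n = 5) in WT ERTU, -0.34 ± 0.41 (n = 5) in Gαq CD and 0.07 ± 0.14 (n = 4) in Gαq ERTU. It was higher in Gαq by 0.73 (exact permutation p = 0.00082, adjusted 0.0032), while Hk2 alone was not called. Which of the 2 is the more abundant depends on the length used, since the medians were 30.5 and 44.2 CPM per kb of merged exons but 60.9 and 47.8 per kb of the longest transcript. The ratio of Ldha to Ldhb was at -1.57, -1.81, -1.74 and -1.79 in WT CD and at -1.53, -1.42, -1.36, -1.31 and -1.33 in Gαq CD, where the groups did not overlap. On ERTU it was at -1.85, -1.88, -1.87, -1.80 and -1.62 in WT and -1.44, -1.77, -1.44 and -1.58 in Gαq, with overlap. Its difference by genotype was 0.29 (exact permutation p = 0.00031, adjusted 0.0019), and Ldhb stayed the more abundant in all libraries.

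Pfkp to Pfkm rose by 0.94 (exact permutation p = 6.3e-05, the smallest the design allows, adjusted 0.0011) and Pfkfb1 to Pfkfb2 fell by 2.46 (exact permutation p = 0.00013, adjusted 0.0011), both with no overlap between genotypes. Pygb to Pygm differed by 0.27 (exact permutation p = 0.00088, adjusted 0.0032). Eno1 to Eno3 differed by 0.30 (exact permutation p = 0.0033, adjusted 0.0098), and without the 4 libraries low in Pdk4 by 0.21 (adjusted p = 0.11). The ratios Pfkl to Pfkm, Pgam1 to Pgam2 and Gfpt2 to Gfpt1 had differences of -0.13, 0.26 and -0.15 (exact permutation, adjusted p = 0.26, 0.26 and 0.50).

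**Figure D4:**
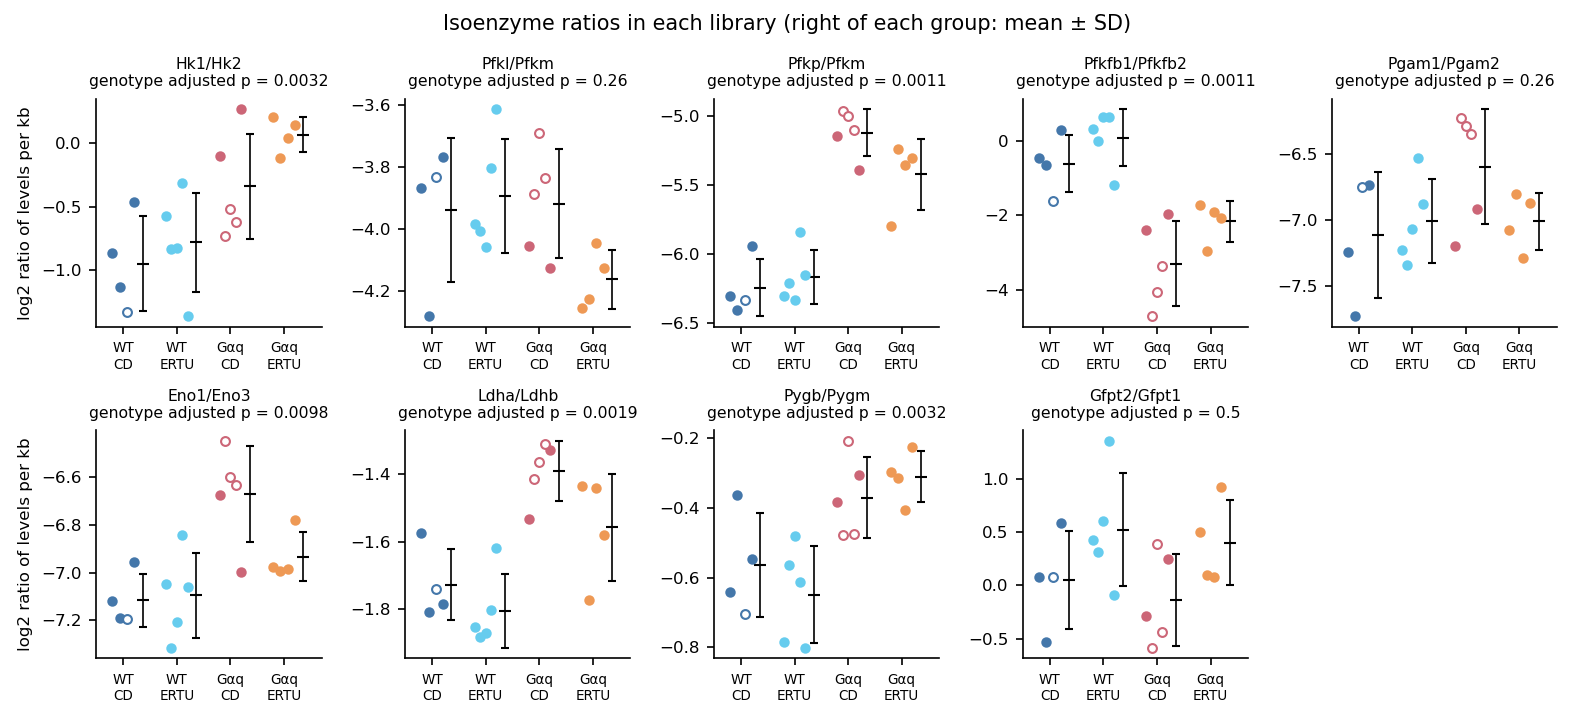
Log2 ratio of levels per kb for 9 isoenzyme pairs in each library, with the group mean and SD beside the points, open points for the libraries low in Pdk4, and the adjusted p by genotype above each panel. Axes differ between panels and do not start at 0. Pfkp to Pfkm (0.94) and Pfkfb1 to Pfkfb2 (-2.46) separate the genotypes in all libraries.

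The members of these pairs that were not called alone are given by library. Pfkm was at 1369, 1586, 1332 and 1227 CPM in WT CD and 1449, 1501, 1312, 1048 and 1535 CPM in WT ERTU, and at 1481, 1078, 1044, 1323 and 1132 CPM in Gαq CD and 1360, 1546, 1190 and 1063 CPM in Gαq ERTU. Its lowest values were those of Gαq CD library 8 and WT ERTU library 14, and the genotypes overlapped over most of their range. Pfkl was at 187, 163, 187 and 179.9 CPM in WT CD and 183, 186, 157, 149.9 and 251 CPM in WT ERTU, and at 178, 146, 162, 185 and 129 CPM in Gαq CD and 142, 165, 144 and 122 CPM in Gαq ERTU. WT ERTU library 15 stood highest, and the 3 lowest libraries were Gαq. On ERTU Pfkfb2 was at 44.5, 58.1, 36.4, 28.5 and 97.3 CPM in WT and 42.6, 73.3, 50.3 and 42.5 CPM in Gαq, so that both the lowest and the highest of the 18 libraries were WT ERTU libraries, numbers 14 and 15.

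Ldha was at 798, 744, 752 and 559.6 CPM in WT CD and 735, 690.3, 698, 606 and 817 CPM in WT ERTU, and at 811, 662, 786, 792 and 781 CPM in Gαq CD and 882, 681, 753 and 661 CPM in Gαq ERTU. Its extremes were WT CD library 5 and Gαq ERTU library 16. Ldhb was at 1128, 1237, 1191 and 916 CPM in WT CD and 1260, 1209, 1211, 1003 and 1190 CPM in WT ERTU, and at 1113, 838, 959.6, 932 and 930.5 CPM in Gαq CD and 1132, 1105, 969.5 and 938 CPM in Gαq ERTU. Gαq CD library 7 was lowest and WT ERTU library 11 highest, with overlap. Pygb was at 1567, 1912, 1321 and 1518 CPM in WT CD and 1653, 1782, 1579, 1220 and 1438 CPM in WT ERTU, and at 1602, 1073, 1090, 1276 and 1600 CPM in Gαq CD and 1756, 1729, 1452 and 1463 CPM in Gαq ERTU. Gαq CD libraries 7 and 8, both low in Pdk4, were lowest, and WT CD library 2 was highest.

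Pgam2 was at 595, 445, 563 and 444 CPM in WT CD and 607, 579, 575, 422 and 568 CPM in WT ERTU, and at 503, 379.7, 380.2, 475 and 435 CPM in Gαq CD and 489.6, 449, 471 and 452 CPM in Gαq ERTU. Its lowest libraries were Gαq CD 7 and 8, and WT libraries 2, 5 and 14 lay among the Gαq values. Pgam1, whose sequence is in part shared, was at 9.17, 4.84, 12.3 and 9.73 CPM in WT CD and 9.47, 8.3, 10.04, 10.7 and 11.3 CPM in WT ERTU. It was at 7.99, 11.9, 11.4, 13.7 and 8.39 CPM in Gαq CD and 8.47, 9.37, 7 and 9.01 CPM in Gαq ERTU. Its spread within WT CD covered all but 1 of the other libraries, the exception being Gαq CD library 9. Eno1, again with shared sequence, was at 37.1, 36, 37.7 and 29.6 CPM in WT CD and 38.9, 35.6, 35.8, 34.2 and 41.7 CPM in WT ERTU. It was at 43.8, 37.8, 40.9, 42.6 and 32 CPM in Gαq CD and 37.2, 33, 32.8 and 33.8 CPM in Gαq ERTU. Gfpt1 was at 29.9, 33.6, 32.8 and 32.5 CPM in WT CD and 26.5, 30.3, 28.5, 27.2 and 31.6 CPM in WT ERTU, and at 37.6, 36.6, 35, 36.3 and 29.2 CPM in Gαq CD and 23.8, 44.2, 32.9 and 34.2 CPM in Gαq ERTU, and its lowest and highest libraries were both Gαq ERTU, numbers 16 and 17.

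On CD alone, with 5 Gαq and 4 WT libraries, 5 of the 34 members were called, 2 higher and 3 lower, against 8.1% of all genes, 4% higher and 4.1% lower, and the median log2 change was -0.09 for the members and 0.01 for all genes. Pfkp had a log2 change of 0.95 ± 0.14 (edgeR adjusted p = 0.00026) and Gyg one of 0.65 ± 0.09 (edgeR adjusted p = 8.0e-05). Pfkfb1 had a change of -2.30 ± 0.28 (edgeR adjusted p = 3.3e-05), Gys1 one of -0.53 ± 0.16 (edgeR adjusted p = 0.043) and Ldhd one of -0.40 ± 0.11 (edgeR adjusted p = 0.032). The libraries did not overlap for 6 members (Pfkp, Pfkfb1, Gys1, Gbe1, Pygm and Gyg), against 9.29% of all genes. The calls of Pfkp, Pfkfb1 and Gyg held in each fit that left out 1 library. That of Gys1 was lost without WT CD library 1, 2 or 5 or Gαq CD library 7, 8 or 10 (adjusted p from 0.0815 to 0.124), and that of Ldhd without WT CD library 2 or 4 or Gαq CD library 7, 8 or 9 (adjusted p from 0.0615 to 0.155). Without the 4 libraries low in Pdk4, where 317 genes were called in place of 1318, neither was. Gys1 then had a log2 change of -0.49 ± 0.19 (edgeR adjusted p = 0.32) and Ldhd one of -0.21 ± 0.15 (edgeR adjusted p = 0.70).

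On ERTU, with 4 Gαq and 5 WT libraries, 5 members were called, 2 higher and 3 lower. Of all genes 8.17% were called, 3.93% higher and 4.24% lower. The median log2 change was -0.17 for the members and within 0.01 of 0 for all genes. This comparison and that on CD came from 1 fit of the 4 groups and shared its estimate of the spread. Pfkfb1 had a log2 change of -2.19 ± 0.29 (edgeR adjusted p = 6.9e-05) and Pfkp one of 0.68 ± 0.14 (edgeR adjusted p = 0.0039). In the glycogen branch Gyg had a change of 0.51 ± 0.09 (edgeR adjusted p = 0.00072), Gys1 one of -0.62 ± 0.16 (edgeR adjusted p = 0.019) and Gbe1 one of -0.38 ± 0.09 (edgeR adjusted p = 0.014). The libraries did not overlap for these 5 members, against 10.9% of all genes. The call of Gbe1 was lost without Gαq ERTU library 20 (adjusted p = 0.0554), and that of Gys1 without WT ERTU library 11 or Gαq ERTU library 16, 18 or 20 (range of adjusted p 0.0536 to 0.061). Pfkp, Pfkfb1, Gys1 and Gyg were thus called on both diets, in the same direction. With only the groups compared in the fit, Gys1 and Ldhd were not called on CD, and the 5 calls on ERTU held.

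**Figure D5:**
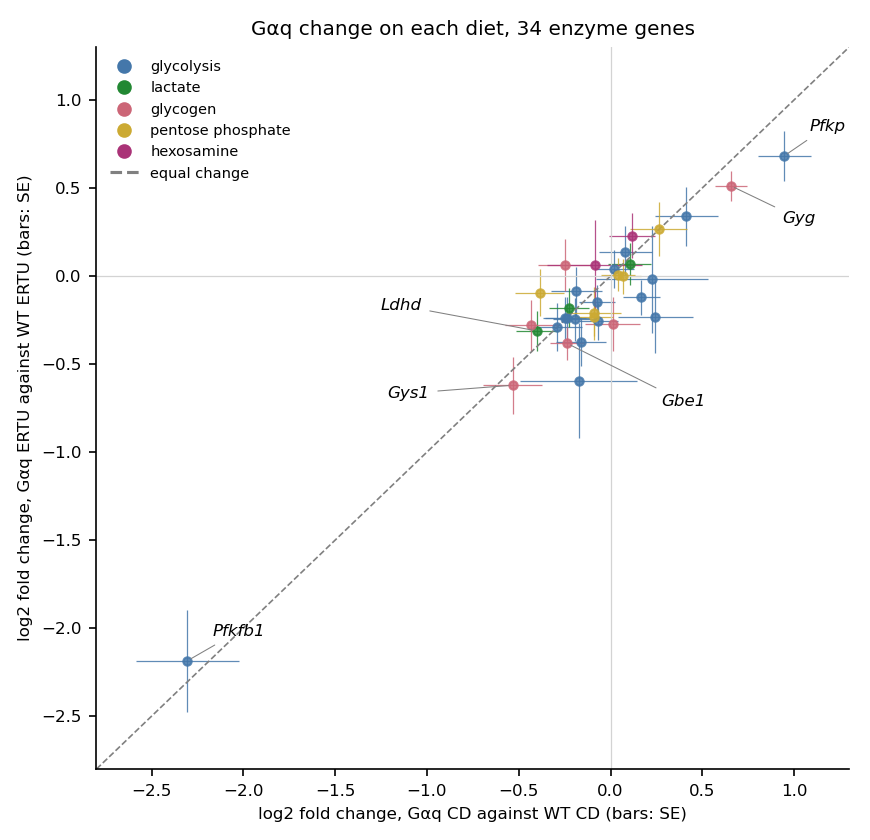
Log2 fold change of Gαq against WT on CD (horizontal) and on ERTU (vertical) for 34 enzyme genes, with bars for the SE, a dashed line of equal change and names for genes called on either diet. Pfkfb1 (-2.30 and -2.19), Pfkp (0.95 and 0.68), Gyg (0.65 and 0.51) and Gys1 (-0.53 and -0.62) lie away from 0 on both axes.

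The comparison of diets asked which enzymes differed between ERTU and CD in a model that also held genotype. By this test 0 members were called, as was the case for 0% of all genes, and 1 member had an unadjusted p below 0.05, against 1252 of the 16270 genes. DESeq2 and voom called 0 members as well. The log2 changes ran from -0.43 for Pfkfb2 to 0.41 for Gfpt2, with SEs from 0.06 to 0.23, and the median was 0.01 for the members and 0.00 for all genes.

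Gfpt2, which controls entry of sugar into the hexosamine pathway, was at 17.5, 12.8, 19.2 and 27.1 CPM in WT CD and 19.8, 20.9, 24, 38.7 and 16.5 CPM in WT ERTU. It was at 17.1, 13.4, 25.4, 14.8 and 19.2 CPM in Gαq CD and 18.7, 26.2, 19.3 and 36.1 CPM in Gαq ERTU. The diets overlapped in both genotypes, and the highest values were those of WT ERTU library 14 and Gαq ERTU library 20. The log2 change was 0.41 ± 0.18 (edgeR adjusted p = 0.64, unadjusted 0.033). Pfkfb1 had a change of 0.38 ± 0.19 and Pfkfb2 one of -0.43 ± 0.21 (edgeR adjusted p = 0.65 for both).

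These changes of Pfkfb1 and Pfkfb2 moved with the libraries low in Pdk4, which are all on CD. Pfkfb2 stood at 87.1 CPM in WT CD library 4 and at 90.0, 82.5 and 91.4 CPM in Gαq CD libraries 7, 8 and 9, and of the other 14 libraries only WT ERTU library 15 was higher, at 97.3 CPM. Without the 4 libraries the log2 change by diet was -0.15 ± 0.25 for Pfkfb2 and 0.06 ± 0.12 for Pfkfb1 (edgeR adjusted p = 1.00 for both). Hk2 was highest in WT CD library 4 among WT CD and in Gαq CD library 9 among Gαq CD libraries, and over all libraries in WT ERTU library 15. It did not set the libraries low in Pdk4 apart within Gαq CD. Library 8, low in Pdk4, had 260.4 CPM of Hk2 and library 6, not low in Pdk4, 266.9 CPM.

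ERTU in WT called 0 members at a background of 0%, and 0 members against 365 of all genes had an unadjusted p below 0.05. ERTU in Gαq called 0 members at a background of 0.00615%, and 0 members against 1240 of all genes had an unadjusted p below 0.05. The diets were free of overlap for 0 members in WT, against 0.756% of all genes, and for 0 in Gαq, against 1.6%. DESeq2 and voom called 0 members in both. In Gαq the largest shift in each direction was -0.55 ± 0.31 for Pfkfb2 and 0.48 ± 0.25 for Gfpt2 (edgeR adjusted p = 0.66 for both). The interaction, which asks whether ERTU acted differently in Gαq than in WT, called 0 members at a background of 0%, with 0 members and 313 of all genes at an unadjusted p below 0.05. Its smallest p among the members was that of Eno1, at -0.29 ± 0.14 (edgeR adjusted p = 1.00, unadjusted 0.056). The SEs of the interaction ran from 0.12 to 0.45.

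By diet 0 of the 9 isoenzyme ratios passed the adjusted threshold. An unadjusted p below 0.05 was found for 3, Gfpt2 to Gfpt1 at 0.50 (exact permutation p = 0.030), Pfkfb1 to Pfkfb2 at 0.92 (exact permutation p = 0.037) and Ldha to Ldhb at -0.12 (exact permutation p = 0.038), each with an adjusted p of 0.075. Without WT ERTU library 15 all 3 passed (adjusted p = 0.029, 0.024 and 0.014). Gfpt2 to Gfpt1 also passed without WT CD library 5 or Gαq CD library 8 (adjusted p = 0.040 and 0.044), and Pfkfb1 to Pfkfb2 without WT CD library 5 or Gαq CD library 10 (adjusted p = 0.043 and 0.041). Without the 4 libraries low in Pdk4 none did.

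The other genes of these pathways, 79 in 6 lists of which 69 were tested, give the setting of the members. By genotype 25 of the 69 were called (36.2%), 9 higher and 16 lower, and by diet 0. Of all genes tested 19.6% were called by genotype, 9.72% higher and 9.92% lower. Among other glycolysis and gluconeogenesis genes, 2 rose and 4 fell of 16. Fbp2, the muscle fructose-1,6-bisphosphatase that runs against phosphofructokinase, was at 13.0 to 34.8 CPM in WT and 3.05 to 13.9 CPM in Gαq, a log2 change of -1.66 ± 0.27 (edgeR adjusted p = 0.00014).

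Of 23 further glycogen genes 1 rose and 8 fell. The fall was largest for Phka1 and Phkg1, subunits of the phosphorylase kinase of muscle that activates phosphorylase. Phka1 was at 53.9 to 80.1 CPM in WT and 35.1 to 45.9 CPM in Gαq (log2 change -0.82 ± 0.08, edgeR adjusted p = 2.5e-07), with no overlap. Phkg1 was at 20.3 to 37.9 CPM in WT and 8.23 to 23.5 CPM in Gαq (-0.69 ± 0.14, edgeR adjusted p = 0.0015). Stbd1, which ties glycogen to membranes, changed by 0.64 ± 0.21 at 0.513 to 2.15 CPM (edgeR adjusted p = 0.041). That call, the one rise in this list, was lost in 11 of 18 fits without 1 library (WT CD 1 or 2, Gαq CD 6, 7 or 8, WT ERTU 11, 12 or 13, or Gαq ERTU 17, 18 or 20, adjusted p up to 0.0878).

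Next to the pentose phosphate pathway, 1 of 8 genes rose and 1 fell. Prps2, which turns ribose-5-phosphate into the precursor of nucleotides, was at 44.4 to 78.9 CPM in WT and 15.6 to 26.2 CPM in Gαq (-1.62 ± 0.11, edgeR adjusted p = 3.4e-09), with no overlap. Prpsap1, a partner of that enzyme, changed by 0.31 ± 0.06 (edgeR adjusted p = 0.00031). Of 10 further hexosamine genes 3 rose, and 0 fell. They were Uap1l1 (0.37 ± 0.09, edgeR adjusted p = 0.0049), Nagk, which salvages N-acetylglucosamine (0.29 ± 0.08, edgeR adjusted p = 0.0095), and Pgm3, which makes a precursor of UDP-N-acetylglucosamine (0.25 ± 0.08, edgeR adjusted p = 0.039). The call of Pgm3 was lost in 12 of 18 fits without 1 library (WT CD 1, 2 or 5, Gαq CD 6, 7 or 9, WT ERTU 11, 12, 13 or 15, or Gαq ERTU 17 or 20, adjusted p up to 0.0896).

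Of 5 polyol and fructose genes, Akr1b8, an aldo-keto reductase, rose by 0.76 ± 0.15 (edgeR adjusted p = 0.00080) and Sord, which oxidises sorbitol to fructose, had a change of -0.49 ± 0.08 (edgeR adjusted p = 0.00013). Of 7 regulators that respond to glucose or oxygen, Hif1a, whose protein drives glycolytic genes in low oxygen, was at 56.4 to 79.1 CPM in WT and 80.7 to 123 CPM in Gαq (0.55 ± 0.09, edgeR adjusted p = 9.4e-05), with no overlap. Mlxip and Mlxipl, which encode the glucose-sensing factors MondoA and ChREBP, had changes of -0.49 ± 0.09 and -0.33 ± 0.11 (edgeR adjusted p = 0.00076 and 0.036). The call of Mlxip held in all 18 fits without 1 library, and that of Mlxipl was lost in 10 (WT CD 1 or 2, Gαq CD 8 or 10, WT ERTU 11, 12 or 15, or Gαq ERTU 16, 17 or 18, adjusted p up to 0.0806).

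Calls of cell type markers by genotype are set against 19.6% of all genes tested, 9.72% higher and 9.92% lower. The 10 fibroblast markers summed to 1658 to 3458 CPM in WT and 3111 to 4807 CPM in Gαq, with 6 called higher. Of the cardiomyocyte markers 1 was called higher and 3 lower, with sums of 43800 to 64000 CPM in WT and 49130 to 63140 CPM in Gαq. Macrophage markers were called higher for 2 of 10 and endothelial markers lower for 2 of 10. Each is 20%, against 9.72% of all genes called higher and 9.92% called lower, and rests on 2 genes. The log2 change was above 0 for 10 of 10 macrophage markers and below 0 for 8 of 10 endothelial markers. Of all genes tested 50.6% were above 0. Lymphocyte markers were called higher for 3 of 7, and of those of red blood cells and fat 0 of 5 each were called. The 8 atrial genes summed to 217 to 940 CPM in WT and 10680 to 21350 CPM in Gαq. Of the 7 atrial genes tested only Nppa, also a gene of ventricular hypertrophy, was called. Of 7 skeletal muscle genes tested 3 were called higher and 1 lower. The part of these shifts in the changes of the enzymes was not tested.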

How the data were processed

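Left ventricle RNA of 18 hearts was poly(A)-selected and sequenced as paired ends. Per the labels and the study's methods, the authors aligned reads to build mm10 with STAR 2.6.0c. They made the deposited read-pair counts per Ensembl gene with featureCounts (Subread 1.6.2). The methods give uniquely aligned proper pairs and the words same strand, and do not say whether counting was specific to the strand of the gene. A second deposited table holds log2-like values from the variance-stabilizing transformation of DESeq2 by the authors and was used only for the isoenzyme ratios.

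Symbols, positions and exon lengths came from GENCODE M21. The counts went into edgeR 4.0.16 under R 4.3.3 (filterByExpr, TMM, quasi-likelihood F tests), which left 16270 genes, and 0.0906% of the counts fell on genes that were removed. Genotype and diet came from an additive model, the other comparisons from a fit of 4 group means. Adjusted p-values (Benjamini-Hochberg) cover the whole table, with a threshold of 0.05. CPM used TMM factors, and log2 CPM a prior count of 2. Errors of log2 changes are SEs. Adjusted p-values printed as 1.00 are rounded. Replicates were separate hearts, so p-values measure the spread between hearts.

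The members and lists were chosen with earlier results of these data known. All members are accounted for, those called and those of the isoenzyme ratios are given library by library, the rest by range or change, and of each other list up to 3 genes with the largest change among those called by genotype are named. Some genes that this rule would name are not reported here. Gfpt2 by diet, Hk2, Pfkfb2 and the overlapping genes were singled out after their values were seen. Steps were tested on simulated data. Alternatives included size factors by median of ratios, other filters on low counts, DESeq2 1.42.0, limma 3.58.1 voom with quality weights, other models, medians, the deposited transformed values, transcript length and fits without 1 library. Leaving out the libraries low in Pdk4 and log2 Myl7 as a covariate were added after the data were seen.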

Additional observations from a re-analysis of the deposited data

Results flagged for a closer look

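In 4 of 140 sets of libraries (35 genes in 4 groups), 1 library stood far from the rest of its group measured as its distance to the closest library over the whole range of its group, against about 7 sets expected by chance at a rate of 1 in 20. Pgam2 was low in WT ERTU library 14, at 422 CPM against 568 to 607 CPM in the others (0.791). Ldhb was low in the same library, at 1003 CPM against 1190 to 1260 CPM (0.727). Ldha was low in Gαq CD library 7, at 662 CPM against 781 to 811 CPM (0.8004), and G6pdx was high in Gαq CD library 8, at 20.7 CPM against 12.5 to 14.2 CPM (0.799). No explanation of these values was tested.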

How the results depend on the processing

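No paired analysis was possible because the numbers of the table columns run on across the groups and pair no libraries. The number of members called by genotype (10) was 17 with voom and sample quality weights, 6 without the libraries low in Pdk4, and 7 to 15 when 1 library was left out, and the 10 were all among those called by DESeq2 (14) and voom. Over all genes the count by genotype, 3196, was 3910 with voom, 3534 with DESeq2 and 2389 without the libraries low in Pdk4. For Gαq on CD (5) it was 3 with only the groups compared, 3 without the libraries low in Pdk4 and 3 to 6 when 1 library was left out, with 3 without WT CD library 2 or Gαq CD library 7. For Gαq on ERTU (5) it was 11 with voom and 3 to 6 when 1 library was left out, with 3 without Gαq ERTU library 20. By diet, for ERTU in either genotype and for the interaction it was 0 under every alternative run, leaving out 1 library included. Isoenzyme ratios called by genotype numbered 6 in each fit without 1 library and 5 without the libraries low in Pdk4, and by diet 0 to 3 when 1 library was left out. The first-named gene was the more abundant per kb in 1 of 10 pairs with merged exons and in 2 with the longest transcript, the change being Hk1 over Hk2. Over all genes, the count for Gαq on CD fell from 1318 to 317 without the libraries low in Pdk4 and was 788 to 1414 when 1 library was left out, with the low values without WT CD library 1 or 2, that for Gαq on ERTU rose from 1330 to 2755 with voom, that for ERTU in Gαq (1) was 0 to 4, and DESeq2 called 2 by diet. Of the single genes and ratios called, 0 turned direction. Genes at a few CPM, such as Pfkfb1 in Gαq and Aldoc, rest on few counts. The levels of Gapdh, Pgk1, Pgam1 and Eno1 are uncertain because of shared sequence, whose part in their low counts was not tested. Causes of these changes were not tested.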

Other observations

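Some members varied together between hearts of the same group. With the group means of log2 CPM removed, all 561 pairs of the 34 tested members were correlated over the 18 libraries, with p-values from 100000 permutations within groups adjusted over all pairs. The 3 pairs with the largest absolute correlation are given. Pfkm and Pkm had r = 0.91 (permutation p = 1e-05, the smallest these permutations can give, adjusted 0.0028) and a rank correlation of 0.89 (permutation p = 1e-05). Without Gαq CD library 8 and WT ERTU library 14, the farthest from the median of Pfkm, r was 0.94. Hk2 and Pfkfb2 had r = 0.90 (permutation p = 1e-05, adjusted 0.0028), a rank correlation of 0.93 (permutation p = 1e-05), and r = 0.83 without WT CD library 4 and WT ERTU library 15. Gpi1 and Aldoa had r = 0.90 (permutation p = 6e-05, adjusted 0.0056), a rank correlation of 0.89 (permutation p = 6e-05), and r = 0.82 without Gαq CD library 7 and WT ERTU library 14. Pairs share the library's depth and scaling, and the part of these was not tested.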
